A study of Mus musculus with 8 samples.

Results

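The A, B, D and E type cyclins were followed through whole mouse testis as 10 transcripts: Ccna1, Ccna2, Ccnb1, Ccnb2, Ccnb3, Ccnd1, Ccnd2, Ccnd3, Ccne1 and Ccne2. They were taken by gene symbol from a table of 55414 genes, and all 10 were found and passed the expression filter. The study holds 8 testis RNA libraries, 4 of a control group and 4 of a group treated with valine, an essential branched-chain amino acid; the stated purpose was to learn what valine does to the testis of male mice. Strain, genotype, age, dose, route and duration are not given in the sources used here, and the labels do not say that the 4 samples of a group are 4 separate animals, so p-values measure sample-to-sample spread that may in part be technical.

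Cyclins are the regulatory subunits of cyclin-dependent kinases (CDKs), and each is made and destroyed in its own window of the cell cycle. D type cyclins with CDK4 and CDK6, and E type cyclins with CDK2, carry cells from G1 into S phase; A type cyclins act in S phase and G2; B type cyclins with CDK1 drive entry into division and must be destroyed for cells to leave it. The testis runs both kinds of division at once, mitosis in spermatogonia and somatic cells and meiosis in spermatocytes, and it uses some cyclins, above all the germ-line cyclin A1, that most other tissues hardly express. The 10 genes were therefore read in 3 classes: Ccna1 and Ccnb3 as meiotic cyclins, Ccna2, Ccnd1, Ccnd2 and Ccnd3 as cyclins of mitotic cycles, and Ccnb1, Ccnb2, Ccne1 and Ccne2 as cyclins of both kinds of division.

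The start regions of 5 members are shown because 4 of them (Ccna1, Ccnb1, Ccnb2 and Ccne1) were higher in every valine sample than in every control sample, while Ccnb3 was not. Each is the 250 bases before the RefSeq start, on the gene's own strand, in build GRCm38.p6 rather than the GRCm39 build of the expression table, and capitals mark CCAAT (or ATTGG, its complement) and TTTGAA.
Ccna1 chr3:55055056-55055305 minus strand: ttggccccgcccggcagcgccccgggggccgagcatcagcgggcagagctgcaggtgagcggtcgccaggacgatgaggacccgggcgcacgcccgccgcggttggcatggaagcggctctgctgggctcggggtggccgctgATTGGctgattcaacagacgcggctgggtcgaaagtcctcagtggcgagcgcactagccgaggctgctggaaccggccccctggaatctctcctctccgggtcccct
Ccnb1 chr13:100786487-100786736 minus strand: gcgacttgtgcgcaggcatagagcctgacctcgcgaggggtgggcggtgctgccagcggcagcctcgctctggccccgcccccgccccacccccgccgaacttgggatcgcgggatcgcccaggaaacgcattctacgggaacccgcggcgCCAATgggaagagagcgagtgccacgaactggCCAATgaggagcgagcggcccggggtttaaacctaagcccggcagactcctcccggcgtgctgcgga
Ccnb2 chr9:70421555-70421804 minus strand: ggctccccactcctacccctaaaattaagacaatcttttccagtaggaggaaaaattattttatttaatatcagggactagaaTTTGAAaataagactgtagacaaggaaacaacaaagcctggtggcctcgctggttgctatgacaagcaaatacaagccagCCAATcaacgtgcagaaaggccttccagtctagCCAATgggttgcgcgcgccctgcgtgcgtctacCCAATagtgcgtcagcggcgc
Ccne1 chr7:38107491-38107740 minus strand: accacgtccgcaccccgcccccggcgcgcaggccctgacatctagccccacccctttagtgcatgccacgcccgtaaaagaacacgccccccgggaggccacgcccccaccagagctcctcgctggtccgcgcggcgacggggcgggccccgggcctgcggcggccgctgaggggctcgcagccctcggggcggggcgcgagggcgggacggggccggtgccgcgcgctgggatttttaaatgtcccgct
Ccnb3 chrX:7041620-7041869 minus strand: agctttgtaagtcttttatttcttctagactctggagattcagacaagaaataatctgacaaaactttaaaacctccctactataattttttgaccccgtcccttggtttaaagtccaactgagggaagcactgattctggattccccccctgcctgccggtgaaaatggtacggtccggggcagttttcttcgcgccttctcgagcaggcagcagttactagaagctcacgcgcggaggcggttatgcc

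CCAAT is the box bound by the factor NF-Y, and TTTGAA and TTCGAA are the letters of the cell cycle homology region, an element of G2 and M phase promoters. Both strands were searched, and none of the motifs overlap. Ccnb2 held 3 CCAAT boxes, at 87 to 83, 54 to 50 and 21 to 17 bases before the start, and TTTGAA at 167 to 162 bases. Ccnb1 held 2 CCAAT boxes, at 99 to 95 and 67 to 63 bases. The Ccna1 region held 1, on the opposite strand at 107 to 103 bases, and the Ccne1 and Ccnb3 regions held none of the motifs, so members that were higher in every valine sample include regions with and without CCAAT. Among 32851 start regions of the same length, 33.8% held CCAAT, 10.1% held it at least 2 times, 16.0% held TTTGAA and 1.34% held TTCGAA. The RefSeq table matched 6 of the 10 members. The other matched member, Ccnd3, which has 2 starts, had 1 CCAAT box at 108 to 104 bases before its downstream start.

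Values are FPKM, the fragments of a gene divided by its exon length and by the size of the library. Total FPKM ran from 944658.8 to 974625.6 across controls and from 1027662.0 to 1070524.1 with valine, so the groups did not overlap on this scale. Whole fragment counts could be recovered from the FPKM steps (99.14% to 99.19% of low values lay within 0.05 of a whole number) and summed to between 16740664 and 19818597 per sample. Changes are the difference of mean log2(FPKM + 1), valine minus control, with limma p-values adjusted over the 22077 genes whose mean reached 1 FPKM; adding 1 FPKM understates the change of low genes. A gene was called at an adjusted p below 0.05.

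The library of control 1 stood apart from the other controls in some genes of neighbouring tissue. It held the fat cell genes Cfd at 29.8 FPKM, Car3 at 14.6 FPKM and Fabp4 at 7.78 FPKM, where no other sample exceeded 1.77, 1.65 and 1.75 FPKM, and it was also the highest for the epididymal gene Crisp1 (5.06 FPKM) and the collagen gene Col1a1 (12.1 FPKM). Not all markers of the same tissues singled it out. The fat cell gene Adipoq was 30.9 FPKM in control 1 and 27.2 to 38.6 FPKM elsewhere, and Plin1 was 2.72 FPKM against 2.90 FPKM in control 3. The epididymal genes Lcn8 and Cst11 were also higher in control 3 (0.91 and 1.44 FPKM) than in control 1 (0.4 and 0.212 FPKM). Called cyclins are therefore also given without control 1. The cell type marker lists below are not.

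In the control testis the cyclin pool was dominated by Ccnb2 and Ccna1. In FPKM, which is already per length, Ccnb2 averaged 210.3 ± 14.7 (SD, n = 4) and Ccna1 146.4 ± 11.8, followed by Ccnb1 at 36.3 ± 2.55, Ccnd3 at 26.2 ± 1.78 and Ccne2 at 23.9 ± 3.90. Ccne1 (4.89 ± 0.680), Ccna2 (4.55 ± 0.324), Ccnd1 (3.14 ± 0.332), Ccnb3 (2.40 ± 0.0756) and Ccnd2 (1.90 ± 0.214) were the low members. Neighbours in this order were apart in all control samples except Ccnd3 with Ccne2 and Ccne1 with Ccna2, whose ranges overlapped. In the valine samples the order of the upper 7 was the same; Ccnb3 (2.09 ± 0.245), Ccnd1 (2.02 ± 0.124) and Ccnd2 (1.37 ± 0.472) followed, and neighbours among these 3 overlapped.

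The length used for FPKM affects that order. The steps of the FPKM fit the union of all annotated exons of a gene, which for Ccnd3 is 8775 bp against 2113 bp for its longest coding transcript, and for Ccnb1 4217 bp against 2489 bp. Per kilobase of the longest coding transcript, with library size taken from the recovered fragments, control Ccnd3 stood at 42.8 ± 2.66, above Ccnb1 at 24.1 ± 1.71, while Ccnb2 at 82.6 ± 4.90 and Ccna1 at 61.5 ± 5.65 remained the upper members. Ccnd2 (1.11 ± 0.139) also passed Ccnb3 (0.948 ± 0.0398) on this scale, with overlapping ranges, where in FPKM Ccnb3 lay above Ccnd2 in every control sample. In the valine samples Ccnd3 again stood above Ccnb1, and Ccnd1 stood above Ccnb3. These values still count fragments from the whole exon union, so any fragment outside the longest coding transcript inflates them.

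**Figure D1:**
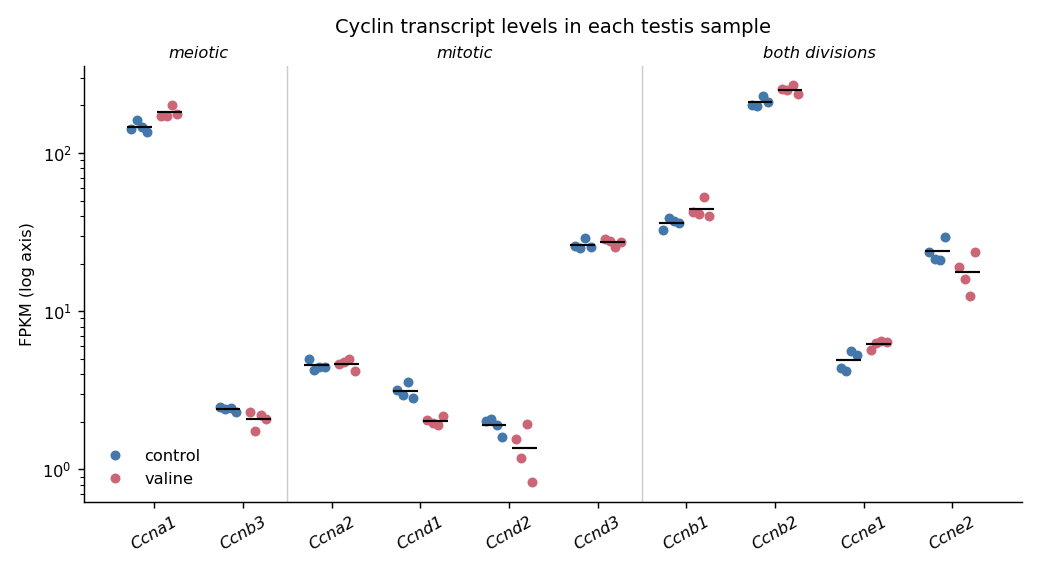
FPKM of each cyclin (log axis) in the 4 control and 4 valine samples; each point is a sample, in replicate order, and bars are group means. Ccna1, Ccnb1, Ccnb2 and Ccne1 sit higher in all valine samples, Ccnd1 sits lower in all of them, and the other 5 overlap.

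Of the 10 cyclins, 2 rose with valine (Ccna1 and Ccnb2), 1 fell (Ccnd1) and 7 did not pass the test. Over all tested genes 4.32% were called higher and 4.41% lower. The groups did not overlap for 4 cyclins that were higher with valine and for 1 that was lower, where 8.99% and 9.39% of all tested genes showed such a separation. An unadjusted p below 0.05 was reached by 6 of the 10, against 25.6% of all tested genes. The median change of the 10 was 0.04, beside 0.02 over all tested genes, since higher and lower members were mixed. In bulk tissue, fewer cells of a type and less RNA per cell cannot be told apart.

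Ccna1, the germ-line cyclin A that male mice need to pass through the first meiotic division, rose. Its level was 142, 163, 147 and 135 FPKM in control samples 1 to 4 and 171, 173, 203 and 177 FPKM in valine samples 1 to 4. Every valine sample was above every control sample, and the nearest pair was control 2 and valine 1. The mean went from 146.4 ± 11.8 to 180.8 ± 14.7 FPKM, a log2 change of 0.30 (SE 0.08, 95% interval 0.13 to 0.47, adjusted p = 0.0430), resting on 1818 to 2828 fragments per sample. The call depended on the setting: it held in 4 of 17 alternative settings (adjusted p 0.0336 to 0.238), and was lost when FPKM totals were made equal (log2 change 0.19, adjusted p = 0.169), under quantile normalisation (0.19, 0.238), with the length trend removed (0.25, 0.0942), with no expression filter (0.130) or no variance trend (0.0780), and when any 1 sample other than control 2 was left out (0.0717 to 0.109; 0.0387 without control 2). Without control 1 the log2 change was 0.29 (adjusted p = 0.109).

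Ccnb3, the B type cyclin of early meiotic prophase, did not follow Ccna1. Its level was 2.48, 2.39, 2.43 and 2.30 FPKM in the control samples and 2.31, 1.75, 2.22 and 2.08 FPKM in the valine samples. The groups touched only between control 4 and valine 1, and the control samples lay closer together than the valine samples. The log2 change of -0.14 (95% interval -0.39 to 0.10) had an adjusted p of 0.439, with 57 to 87 fragments behind each value; on recovered fragments the change was -0.24.

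Ccnd1, the D type cyclin that couples growth signals to CDK4 and CDK6, was the member that fell. It measured 3.18, 2.96, 3.58 and 2.83 FPKM in the control samples and 2.05, 1.96, 1.90 and 2.19 FPKM in the valine samples, so that the highest valine sample lay below the lowest control sample. Its mean went from 3.14 ± 0.332 to 2.02 ± 0.124 FPKM, a log2 change of -0.45 (SE 0.10, 95% interval -0.69 to -0.21, adjusted p = 0.0337), from 64 to 115 fragments per sample. With a pseudocount of 0.1 the change was -0.61 (adjusted p = 0.0317), and on recovered fragments it was -0.66 (adjusted p = 0.0117). The call held in 6 of 16 alternatives (adjusted p 0.0117 to 0.0992); it was lost under quantile normalisation (0.0607), with the length trend removed (0.0549), and without any 1 sample other than control 4 (0.0592 to 0.0877; 0.0475 without control 4). Without control 1 the log2 change was -0.44 (adjusted p = 0.0877).

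Ccnd2, a D type cyclin known from spermatogonia and granulosa cells, varied most among the valine samples. Control samples gave 2.01, 2.09, 1.92 and 1.60 FPKM and valine samples 1.55, 1.18, 1.93 and 0.835 FPKM. Valine 3 lay among the controls while valine 4 was the lowest of all, and the coefficient of variation was 11.2% in control and 34.4% in valine samples. The log2 change was -0.31 (95% interval -0.69 to 0.07, adjusted p = 0.287), and -0.56 on recovered fragments.

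Ccnd3, the most abundant D type cyclin here, gave 25.8, 25.01, 28.9 and 25.3 FPKM in the control samples and 28.5, 27.9, 25.6 and 27.4 FPKM in the valine samples. The ranges overlapped almost fully, and the log2 change was 0.06 (95% interval -0.09 to 0.21, adjusted p = 0.607; -0.05 with equal FPKM totals). Ccna2, the A type cyclin of mitotic S phase and G2, ran from 4.25 to 5.01 FPKM in control and from 4.18 to 4.96 FPKM in valine samples. Its log2 change was 0.02 (95% interval -0.18 to 0.22, adjusted p = 0.915) and turned to -0.08 with equal FPKM totals, so no direction can be given.

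Ccnb2, a CDK1 partner that mice can lack and stay fertile, rose. Control samples gave 202, 197, 231 and 211 FPKM and valine samples 253, 249.6, 267 and 235 FPKM. The lowest valine sample, valine 4, lay just above the highest control sample, control 3. The mean went from 210.3 ± 14.7 to 251.2 ± 13.3 FPKM, a log2 change of 0.26 (SE 0.06, 95% interval 0.12 to 0.40, adjusted p = 0.0393), from 2017 to 3115 fragments per sample. The call held in 6 of 17 alternatives (adjusted p 0.0276 to 0.396); it was lost with equal FPKM totals (log2 change 0.14, adjusted p = 0.207), under quantile normalisation (0.10, 0.396), with the length trend removed (0.18, 0.124), with no expression filter (0.109) or no variance trend (0.0821), and without any 1 sample other than control 3 (0.0276 without it) or valine 4 (0.0460 without it), where it ran from 0.0735 to 0.105. Without control 1 the log2 change was 0.24 (adjusted p = 0.105).

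Ccnb1, the CDK1 partner that mouse embryos cannot do without, did not pass the test. It measured 32.7, 38.7, 37.4 and 36.3 FPKM in the control samples and 42.2, 41.4, 52.5 and 39.9 FPKM in the valine samples. All valine samples were above all control samples, with valine 3 well above the rest. The log2 change was 0.27 (95% interval 0.05 to 0.48, adjusted p = 0.119), close in size to that of Ccnb2, and 0.15 with equal FPKM totals. Ccnb1 has 4 annotated pseudogene copies that match it over at least 100 bp at 95% identity or more, so its reads may be split; the nearest, Ccnb1-ps, matched at 99.2% over 1287 bp and averaged 3.06 FPKM in control and 2.33 FPKM in valine samples.

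The E type cyclins, which load CDK2 at the start of S phase, did not pass the test. Ccne1 gave 4.41, 4.22, 5.62 and 5.30 FPKM in the control samples and 5.66, 6.26, 6.52 and 6.36 FPKM in the valine samples, with valine 1 barely above control 3. Its log2 change was 0.30 (95% interval 0.06 to 0.53, adjusted p = 0.115). Ccne2, the E type cyclin that male meiosis depends on more, gave 23.8, 21.4, 20.9 and 29.4 FPKM in the control samples and 19.0, 15.9, 12.4 and 23.7 FPKM in the valine samples. Valine 4 lay inside the control range and the other valine samples below it, and the log2 change was -0.43 (95% interval -0.86 to -0.0044, adjusted p = 0.191).

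**Figure D2:**
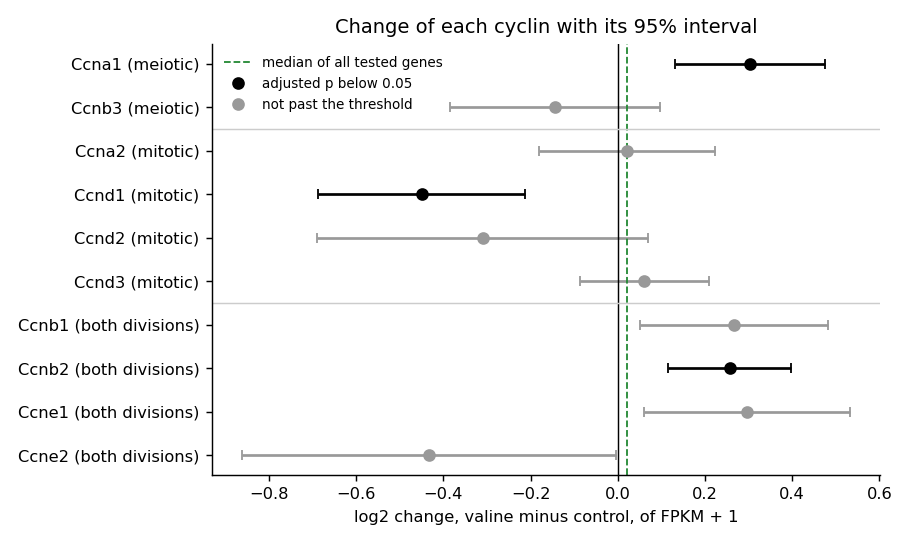
Log2 change of FPKM + 1 (valine minus control) for each cyclin, with the 95% interval from limma; black marks an adjusted p below 0.05 and the dashed line is the median of all tested genes. Ccna1 (0.30) and Ccnb2 (0.26) lie to the right, Ccnd1 (-0.45) to the left, and the meiotic pair Ccna1 and Ccnb3 point in opposite directions, Ccnb3 with an interval that includes 0.

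Set against one another, the classes differed mainly in their weight. The 10 cyclins summed to 459.9 ± 16.7 FPKM in control and 537.4 ± 27.4 FPKM in valine samples (443.0 to 482.5 against 518.6 to 577.9), which did not overlap, as the FPKM totals did not. As a percentage of each sample's total FPKM the sums overlapped, at 0.0465% to 0.0501% in control and 0.0484% to 0.0560% in valine samples. The meiotic class summed to 137.2 to 164.9 FPKM in control and 173.5 to 204.7 FPKM in valine samples, nearly all of it Ccna1, and the cyclins of both divisions to 261.5 to 294.5 and 304.8 to 338.8 FPKM. The mitotic class stayed within 34.21 to 38.83 FPKM in control and 34.42 to 36.73 FPKM in valine samples. As a share of the summed cyclins, which does not depend on the total FPKM of a sample, the mitotic class made up 7.45% to 8.12% in control and 5.96% to 6.93% in valine samples, while the meiotic class overlapped (30.2% to 35.8% and 32.7% to 35.4%), as did the cyclins of both divisions (56.8% to 62.2% and 58.6% to 60.3%). These sums and shares are descriptions, given without a test; Ccnd3 made up 5.70% of the control sum, and Ccnb2 45.7%.

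Ratios between cyclins of the same sample remove the scale of that sample, and 6 were compared with an exact two-sided permutation test (70 arrangements, smallest possible p 0.0286), adjusted over the 6. None passed, but at least 4 of the 6 would have had to reach the smallest possible p for any adjusted p to fall below 0.05 (1 alone gives 0.171), so the adjusted test says little here. The meiotic-to-mitotic ratio Ccna1 to Ccna2 had a mean log2 value of 4.98 ± 0.19 in control and 5.26 ± 0.11 in valine samples (difference 0.28, exact p = 0.0857, adjusted p = 0.129), about 31.5 to 1 and 38.3 to 1. Ccnb3 to Ccnb1 went from -3.86 ± 0.13 to -4.33 ± 0.19 (difference -0.47, exact p = 0.0286, adjusted p = 0.129), and this was the ratio whose groups did not overlap, valine being lower in all 4 samples.

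Within the D and E types the ratios spread more among the valine samples than among the controls. Ccnd2 to Ccnd3 went from -3.72 ± 0.18 to -4.28 ± 0.52 (difference -0.56, exact p = 0.0857, adjusted p = 0.129), with valine 3 inside the control range. Ccne1 to Ccne2 went from -2.26 ± 0.26 to -1.46 ± 0.43 (difference 0.80, exact p = 0.0571, adjusted p = 0.129), the largest difference of the 6, and the groups met at control 3 and valine 4. Ccnd1 to Ccnd2 (difference -0.11, exact p = 0.714, adjusted p = 0.743) had no stable direction: valine samples ran from -0.02 to 1.29, and without valine 3 the difference was 0.09. Ccnb1 to Ccnb2 was nearly level, at -2.53 ± 0.13 and -2.52 ± 0.11 (difference 0.02, exact p = 0.743, adjusted p = 0.743); it turned below 0 without control 1, control 3 or valine 3 (-0.01, -0.01 and -0.04).

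**Figure D3:**
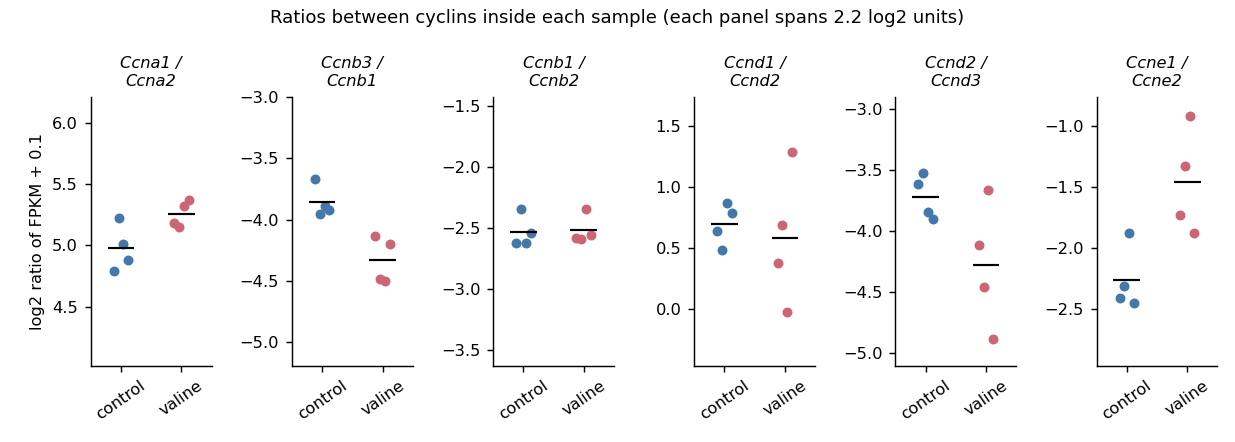
Log2 ratio of FPKM + 0.1 between 2 cyclins of the same sample, for 6 pairs in 4 control and 4 valine samples; points are samples, bars are means, and every panel spans the same height. Only the Ccnb3 to Ccnb1 panel has groups that do not overlap, and Ccnb1 to Ccnb2 differs by 0.02.

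The kinases and regulators that cyclins work with were read from 6 lists of 54 genes, of which 53 were measured and 52 tested; Lin54 was not analysed here and E2f2 was below the filter. By limma 0 of the 52 were called in either direction, and 12 had an unadjusted p below 0.05 (7 higher, 5 lower), or 23.1% against 25.6% of all tested genes. On recovered fragments with voom weights, 0 were called higher and 2 lower (E2f3 and Bub1). The median change of the 52 was 0.05.

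Among the 6 CDK and CKS genes the smallest p belonged to Cks2, a small subunit of CDK complexes that mice need for meiosis. Its mean was 171.1 ± 10.9 FPKM in control and 217.1 ± 25.7 FPKM in valine samples, higher in every valine sample (log2 change 0.34, adjusted p = 0.0530). It passed the threshold in 3 of 17 alternatives, among them the fit without valine 3 (adjusted p = 0.0285). Cdkn2c, an inhibitor of CDK4 and CDK6, led the 9 inhibitors and inhibitory kinases at 144.0 ± 2.64 and 164.7 ± 11.5 FPKM (log2 change 0.19, adjusted p = 0.0686), and Spdya, an atypical CDK activator of meiotic telomeres, led the 7 activators at 50.2 ± 5.37 and 61.7 ± 6.76 FPKM (0.29, adjusted p = 0.104).

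The 9 genes of cyclin destruction lay between -0.05 and 0.16 in log2 change, none with an unadjusted p below 0.05, and Anapc11, the RING subunit of the anaphase-promoting complex, had the smallest p (24.1 ± 0.850 and 26.5 ± 1.96 FPKM, adjusted p = 0.248). Of the 10 tested pocket protein and E2F genes, E2f3, an activator of S phase genes, was lower in all valine samples (2.45 ± 0.224 and 1.68 ± 0.102 FPKM, log2 change -0.36, adjusted p = 0.0712; 0.0219 by voom). Of the 11 proliferation markers 4 had an unadjusted p below 0.05 in the lower direction and 1 in the higher, and Bub1, a checkpoint kinase of the kinetochore, was lower in all valine samples (54.5 ± 1.81 and 48.7 ± 0.251 FPKM, log2 change -0.16, adjusted p = 0.0602; 0.0401 by voom).

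**Figure D4:**
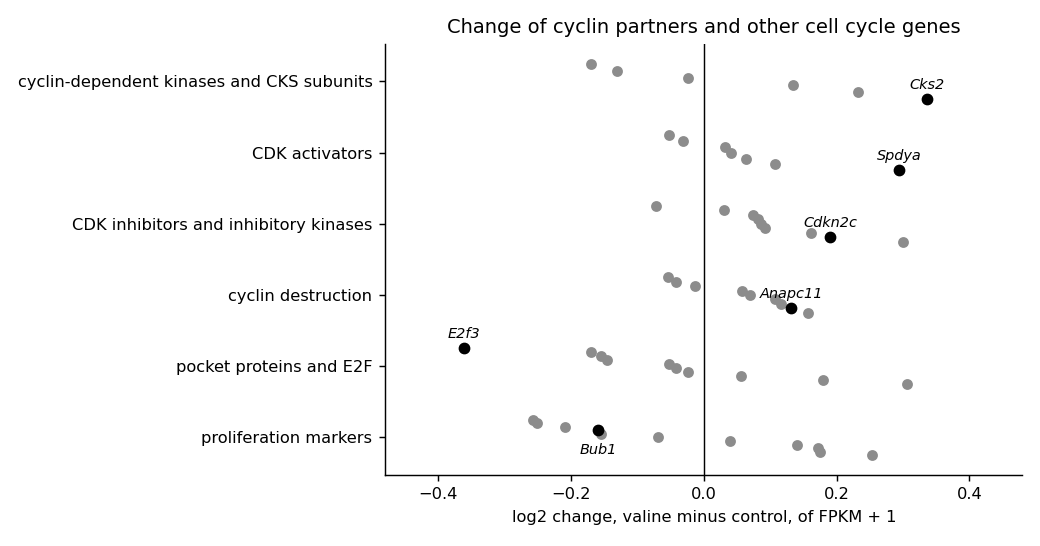
Log2 change of FPKM + 1 (valine minus control) of the 52 tested cell cycle genes in 6 lists; each point is a gene, and black points are the gene with the smallest p of its list. None passed the adjusted threshold; Cks2 (0.34) and E2f3 (-0.36) mark the extremes.

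Cell type markers moved in the same samples. Their calls and sums are on deposited FPKM, whose totals were higher with valine, and are not given with equal totals. Markers of elongating spermatids were called higher for 6 of 8 genes (summed 42210 to 44530 FPKM in control, 53780 to 65660 FPKM in valine samples), beside the rise of Ccna1 and Ccnb2. Spermatocyte markers, the cells that use Ccna1, had 1 of 12 called higher and 1 lower (5734 to 6051 and 6368 to 7058 FPKM). Most of that sum is Ldhc, a lactate dehydrogenase subunit of spermatocytes and spermatids, at 4369 to 4565 and 4925 to 5640 FPKM; the other 11 markers overlapped at 1365 to 1486 and 1396 to 1443 FPKM. Of the remaining germ cell lists, round spermatid markers had 1 of 8 called in each direction (1856 to 2131 and 1653 to 2029 FPKM), and spermatogonial markers 0 higher and 2 lower of 10 (184.9 to 206.8 and 206.7 to 220.1 FPKM). The 2 called lower were Kit (log2 change -0.95, limma adjusted p = 0.00933) and Zbtb16 (-0.89, 0.0123). Most of the spermatogonial sum is Dazl (means 86.4 and 100.7 FPKM) and Uchl1 (51.2 and 59.0 FPKM), neither of which was called.

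Beside the fall of Ccnd1, markers of interstitial cells were lower. The spermatogonial list was mixed, with a change above 0 for 6 of 10 markers and below 0 for 4. In every valine sample 4 of them were higher (Gfra1, Dmrt1, Uchl1 and Dazl) and 2 lower (Kit and Zbtb16). Of all tested genes 8.99% and 9.39% separated in this way. All 8 Leydig cell markers were called lower (1601 to 2269 FPKM in control, 474.5 to 766.2 FPKM in valine samples), as were 4 of 7 peritubular and stromal (84.75 to 112.9 and 39.73 to 52.41 FPKM), 4 of 6 tested endothelial (27.95 to 32.42 and 15.91 to 17.22 FPKM) and 4 of 7 macrophage markers (80.13 to 98.36 and 36.38 to 45.24 FPKM). Sertoli cell markers had 0 of 10 called, with 2 at an unadjusted p below 0.05 (756.1 to 854.6 and 741.8 to 803.9 FPKM). None of these lists had a gene at 0 in any sample, and the upper control sums of the stromal and endothelial lists are control 1. Of the tissues that can come along with a testis, adipocyte markers had 1 of 5 tested called lower (30.71 to 86.23 and 31.24 to 40.64 FPKM; the upper end is control 1; Cfd, Car3 and Lep were at 0 in some sample), and of 6 epididymis markers 1 could be tested and was not called (10.09 to 14.22 and 5.803 to 14.69 FPKM; 5 genes at 0 in at least 1 sample, of which Spink13 in all). The part of these cell types in the cyclin results was not tested.

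Reads can also be shared with genes on the opposite strand, since the strand setting of the counting is not given in the sources used here. Ccna1 overlaps the antisense gene 4931419H13Rik, which averaged 6.77 ± 1.79 FPKM in control and 11.6 ± 4.54 FPKM in valine samples (log2 change 0.64, adjusted p = 0.205), with a match of 190 bp. Ccnd1 overlaps LTO1 (5.59 ± 0.444 and 5.98 ± 0.594 FPKM, adjusted p = 0.635), a level above that of Ccnd1 itself, with 818 bp in common. Ccna2 overlaps Exosc9, Ccnd3 overlaps Bysl, Ccne2 overlaps Ints8, and Ccnd2 overlaps Gm43126 and 9330179D12Rik; no such overlap or close copy was found for Ccnb2, Ccnb3 or Ccne1. The part of shared reads in the cyclin values was not tested.

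**Figure D5:**
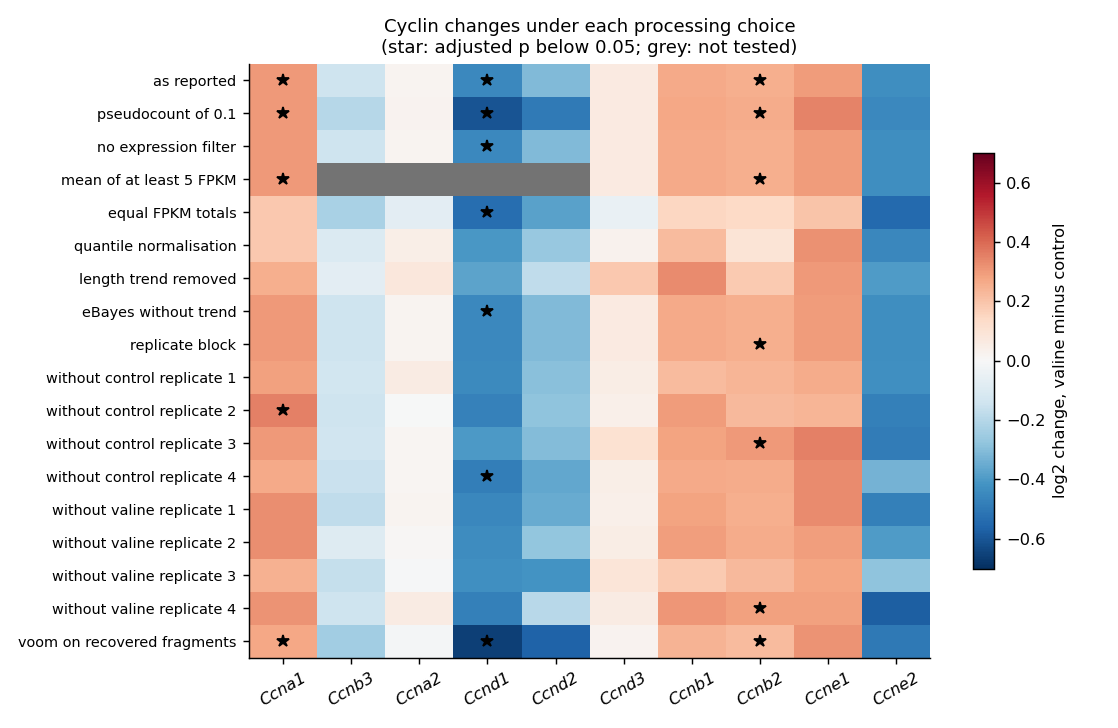
Log2 change (colour) of each cyclin under each processing choice and with each sample left out; stars mark an adjusted p below 0.05 and grey cells were not tested. The signs of 8 cyclins are the same throughout, Ccna2 and Ccnd3 change sign, and stars for Ccna1, Ccnd1 and Ccnb2 come and go.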

How the data were processed

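Gene expression was measured by RNA-seq of total RNA from 8 mouse testis samples, 4 per group. The authors deposited a table of gene FPKM; reads were aligned with HISAT2 to GRCm39, per the submitters' processing notes, and the counter, annotation and strand setting are not given in the sources used here. Symbols and exon lengths for 52081 of the 55414 Ensembl identifiers came from a GENCODE annotation of another build, GRCm38. Its coordinates served to find genes that overlap the cyclins and were not mixed with GRCm39 coordinates. FPKM were taken as log2(FPKM + 1), genes with a mean below 1 FPKM were left out, and limma 3.58.1 (R 4.3.3) with a variance trend and Benjamini-Hochberg adjustment over 22077 genes tested valine against control; the procedure was tested on simulated data. Ratios between cyclins used log2(FPKM + 0.1) and an exact permutation test (scipy 1.17.1). Whole fragments were recovered from FPKM steps and exon lengths and analysed with voom, an alternative chosen after seeing the data; their sums exceed the totals by which the FPKM were scaled, for a reason that could not be settled, so they serve as a relative depth. They number 16740664 to 19818597 per sample, and this depth limits the low members most. Close copies were sought with BLAST 2.17.0.

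The text names all 10 cyclins, and for each list of other cell cycle genes those past the threshold, up to 6, or otherwise the gene with the smallest p. The members, classes and lists were chosen with earlier results of these data known. Alternatives were another pseudocount (0.1), no filter or a mean of at least 5 FPKM, equal FPKM totals, quantile normalisation, removal of a length trend, no variance trend, a replicate block and leaving out each sample. The replicate numbers did not pair the samples and were not used in the reported values.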

Additional observations from a re-analysis of the deposited data

Results flagged for a closer look

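The log2 ratio of Ccnb1 to Ccnb2 stood apart in 1 sample: valine 3, at -2.35, was far above the other valine samples, which lay between -2.59 and -2.55. Its gap to the nearest sample was 0.864 of the group's range, above Dixon's critical value for 4 samples. Control 2 had nearly the same ratio, -2.35. Among 32 groups of 4 checked, chance alone marks about 1 in 20.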

How the results depend on the processing

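The direction of change was the same for 8 of the 10 cyclins under every setting run in which they were tested; Ccna2 turned to -0.0759 with equal FPKM totals and -0.0144 on recovered fragments (-0.0074 to 0.0597 with 1 sample left out), and Ccnd3 to -0.0529 with equal FPKM totals. Equal totals moved the median change of all genes from 0.02 to -0.08. Ccnd1 was then at -0.53, Ccna1 at 0.19, Ccnb2 at 0.14, Ccnb1 at 0.15 and Ccne1 at 0.20. This setting rescales all genes of a sample by the same factor, so a gene's place relative to the median is nearly fixed in advance and tests nothing. Cyclins called higher numbered 0 with no filter, equal totals, quantile normalisation, the length trend removed or no variance trend, and 0 to 1 with 1 sample left out. Cyclins called lower numbered 0 with a mean of at least 5 FPKM (Ccnd1 not tested), quantile normalisation or the length trend removed, and 0 to 1 with 1 sample left out. With the replicate block 1 cyclin was called higher (Ccnb2, limma adjusted p = 0.0498) and 0 lower (Ccna1 0.0757, Ccnd1 0.0992), 581 and 489 of all genes were called higher and lower, and 1 machinery gene was called higher (Cks2). Same-numbered samples deviated together only weakly (correlations of -0.02, -0.04, 0.10 and 0.11; 1 of 4 controls was nearest its own number), so the numbers are not read as pairs, and the ratios cannot go below an exact p of 0.125 under the block.

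Machinery genes called higher numbered 1 with a mean of at least 5 FPKM (Cks2) and with the length trend removed, and 0 to 1 with 1 sample left out. Those called lower numbered 1 with no filter (Bub1), 1 with a mean of at least 5 FPKM (Bub1), 7 with equal totals, 1 with quantile normalisation (Bub1), 1 with no variance trend (E2f3) and 2 on recovered fragments. Of all genes, 954 higher and 974 lower (49.5% higher) became 419 and 597 with no filter, 363 and 2022 (15.2% higher) with equal totals, 399 higher (27.9%) with quantile normalisation, 503 higher (37.3%) with no variance trend, 642 lower with the length trend removed and 1566 lower (33.7% higher) on recovered fragments; 60.3% were higher with a mean of at least 5 FPKM. With 1 sample left out, 381 to 795 were higher and 461 to 802 lower. The ratio differences ran from -0.0413 to 0.0773 (Ccnb1 to Ccnb2) and from -0.3439 to 0.0929 (Ccnd1 to Ccnd2) with 1 sample left out, and none of the 6 ratios passed the adjusted threshold under any setting, which this design could hardly reach; 3 samples against 4 cannot give an exact p below 0.0571. The filters change how many genes are tested, and the cause of these shifts was not tested. The low cyclins rest on 57 to 157 fragments per sample, which limits what could be seen for Ccnb3, Ccna2, Ccnd1, Ccnd2 and Ccne1.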
